A study of Mus musculus with 4 samples.

Results

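Bcar3-positive B cells are the lymph node B cells in which at least 1 transcript of Bcar3 was counted. They were chosen from cells with 200 to 5000 genes, at most 20000 unique molecular identifiers (UMIs, the molecular tags by which each captured transcript is counted once) and under 10% mitochondrial UMIs. A member holds at least 1 UMI each of Cd79a and Bcar3, no UMI of Cd3d, Cd3e, Cd3g or Jchain, fewer than 2 UMIs of Ifit1, Ifit3 and Rsad2 together, and none of Mki67, Top2a, Birc5 and Ube2c. T cells, antibody-secreting cells, cells with a strong interferon response and cycling cells are thereby left out. The rule found 7765 cells among 13247 gated B cells, 32725 filtered cells and 34323 barcodes. The remaining 5482 gated B cells held no Bcar3 UMI and are called Bcar3=0 B cells.

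BCAR3 is an adaptor protein of the NSP family. It carries an SH2 domain and a second domain that binds the CAS scaffold proteins, such as Bcar1 and Nedd9, and these complexes act in adhesion, migration and Rap and Rac signalling. Arhgap24 encodes a GTPase-activating protein that acts on Rac and binds filamin. Most mature B cells of a lymph node are recirculating follicular cells, whereas marginal zone B cells, with high complement receptor Cr2 and active Notch signalling, are typical of the spleen.

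Draining lymph node cells of wildtype C57BL/6 mice were profiled cell by cell in droplets, in 2 Control and 2 EV libraries. EV mice received 100 µg of extracellular vesicles from induced pluripotent stem cells under the skin. The series design gives day 5 for the harvest and the study's methods give PBS for the controls, while the sample labels give 24 h and no treatment. The methods call the replicates of a group biological, and the sources used here give neither the age of the mice nor how many stand behind a library. The libraries hold 50749656 and 58100433 UMIs (Control libraries 1 and 2) and 68116085 and 70418672 UMIs (EV libraries 1 and 2). The 2 Control libraries gave 1444 and 1275 Bcar3-positive cells, and the 2 EV libraries gave 2539 and 2507. Values for 4 libraries are given below as Control 1, Control 2, EV 1, EV 2. The median depth of a member was 4332.5, 5155, 6101 and 5821 UMIs, against 3898, 4461, 5364 and 5146 in Bcar3=0 cells. A cell with more UMIs has more chances to show Bcar3, so the shares and the tests between classes and treatments were also computed in depth-matched or thinned cells, but not the cluster shares or the levels by number of Bcar3 UMIs. From 12 to 26 filtered barcodes were shared by each pair of libraries.

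The cells carried B cell transcripts throughout. Cd79b, the partner of Cd79a in the B cell receptor, was detected in 98.5% to 99.2% of Bcar3-positive cells per library. Ms4a1 (CD20) was found in 94% to 97.3% and the B lineage factor Pax5 in 93.9% to 98.4%. The T cell receptor gene Trac was found in 1.12% to 1.49% of the members and in 90.2% to 94.2% of T cells (at least 1 Cd3d, Cd3e or Cd3g UMI and no Cd79a UMI). Arhgap24, the other marker given with these cells, was found in 53.4%, 61.0%, 56.6% and 58.0% of Bcar3-positive cells and in 40.7%, 44.6%, 41.9% and 43.5% of Bcar3=0 cells. In depth-matched cells Arhgap24 was found in 48.4%, 53.2%, 51.4% and 51.5% of members against 43.2%, 46.8%, 42.8% and 44.1% of Bcar3=0 cells. The B cell label therefore fits the markers, and Arhgap24 was more frequent in members without marking all of them or only them.

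Bcar3 lies on chromosome 3 from 122294136 to 122530191 on the plus strand of GRCm38 (mm10), and Arhgap24 on chromosome 5 from 102481391 to 102897937 on the plus strand. Both spans overlap other annotated genes, 4 for Bcar3 and 1 for Arhgap24, some of them on the opposite strand. Whether reads were counted by strand is not given in the sources used here.

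Bcar3 counts were graded and had no gap. Over the 4 libraries, 2801 gated B cells (21.1%) held exactly 1 Bcar3 UMI, 1710 held 2, 1053 held 3, 1049 held 4 or 5, and 1152 (8.70%) held 6 or more. The highest count in a single cell was 24, 39, 38 and 44 UMIs. The members just inside the threshold (1 UMI) had median depths of 4043, 4788, 5662.5 and 5371 UMIs. Cells with 0 UMIs, just outside it, had the medians given above, which were lower in every library. Cells with 6 or more Bcar3 UMIs had medians of 5292, 6573.5, 7031 and 6619 UMIs. Summed over the members, Bcar3 stood at 509, 514, 502 and 636 CPM (normalised UMI counts relative to library size, scaled by edgeR's TMM method). The level rose with the bin by construction, to a mean of 1326 ± 77.3 CPM (SD, n = 4 libraries) at 6 or more UMIs.

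In T cells, where any Bcar3 count gives the level of free RNA and rare expression, a UMI was found in 0.513%, 0.752%, 0.358% and 0.673% of cells. The T cells were deeper than the B cells, at a median of 6437, 7518, 8748 and 8064 UMIs per cell. The share in gated B cells was 52.0% in Control library 1 (95% Wilson interval 50.2% to 53.9%), 56.0% in Control library 2 (53.9% to 58.0%), 58.7% in EV library 1 (57.2% to 60.1%) and 64.9% in EV library 2 (63.3% to 66.4%). The intervals cover counting error only. The share in B cells lay far above that in T cells in every library.

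**Figure D1:**
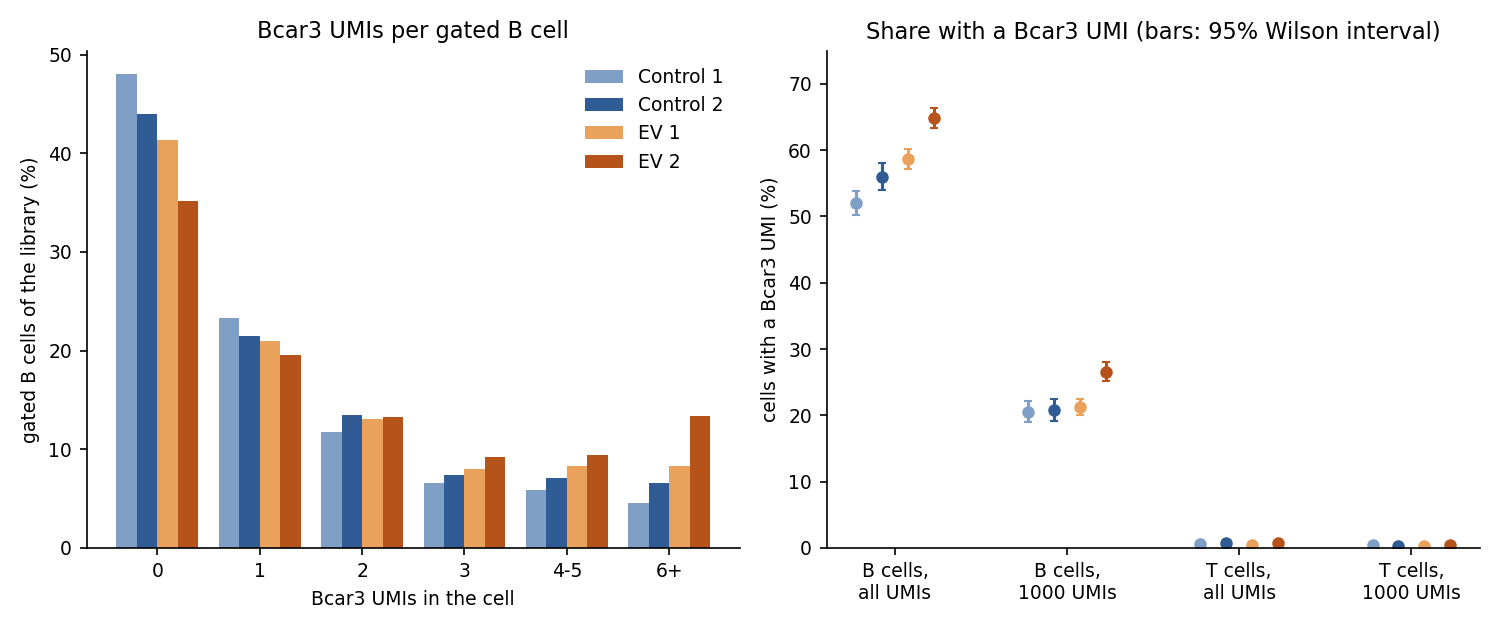
Left, percentage of gated B cells of each library (y axis) by number of Bcar3 UMIs in the cell (x axis), 1 bar per library. Right, percentage of B cells and T cells with a Bcar3 UMI, with all UMIs and after thinning to 1000 UMIs, as points with 95% Wilson intervals. B cells with 6 or more Bcar3 UMIs were 4.50%, 6.59%, 8.34% and 13.4% of gated B cells, Control before EV, and all T cell points lie under 1%.

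The first comparison asked whether EV treatment went with more Bcar3-positive B cells. The mean share of gated B cells was 54.0% ± 2.81 in the Control and 61.8% ± 4.39 in the EV libraries (SD, n = 2 each), 7.75 percentage points higher, and the groups did not overlap. This difference was 4.645 percentage points without EV library 2 and 10.9 without EV library 1. It was 5.76 without Control library 1 and 9.74 without Control library 2. An exact two-sided permutation test of 2 against 2 libraries cannot give a p under 0.33, which was its value. When each cell was thinned at random to 1000 UMIs before the gate, the shares were 20.5%, 20.8%, 21.2% and 26.6%, a difference of 3.23 percentage points. Control library 1, Control library 2 and EV library 1 then had overlapping Wilson intervals, and EV library 2 lay above them. As a share of all filtered cells, members were 16.9% ± 1.12 in the Control and 30.2% ± 1.21 in the EV libraries (SD, n = 2 each, exact permutation p = 0.33), and gated B cells as a whole numbered 2776 and 2277 against 4329 and 3865 cells.

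The level of Bcar3 over all gated B cells, which the threshold does not touch, was 286, 313, 314 and 441 CPM. EV library 2 stood apart, and EV library 1 lay beside Control library 2. In the same fit 2.33% of all genes were called, 1.40% higher and 0.929% lower. The EV effect was 0.31 on the log2 scale (SE 0.15, edgeR quasi-likelihood test, Benjamini-Hochberg adjusted p = 0.297) and was not called. It was 0.05 without EV library 2 and 0.53 without EV library 1 (edgeR adjusted p = 4.57e-09), the lone EV library being assumed to vary like the others, so that the call rests on which EV library is kept. Arhgap24 did not share this pattern, at 325, 376, 287 and 351 CPM, a log2 difference of -0.16 (SE 0.12, edgeR adjusted p = 0.517).

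The gated B cells were clustered without Bcar3 and the other genes of the rule. Bcar3-positive cells were found in all 14 clusters, from 37.8% of the cells in cluster 12, led by the myeloid genes Lyz2 and S100a4, to 95.6% in cluster 10. Cluster 10 held 318 cells and was led by Hpgds, Fam167a, Ank, Lztfl1 and Bcar3 itself, followed by Pdcd1lg2, a PD-1 ligand known from memory B cells, and later Egr3. Its share of members was 95.2%, 97.2%, 94.7% and 95.5% in the 4 libraries, with 83, 72, 75 and 88 cells. Its Bcar3 level was 1407 CPM, while its median depth of 5008.5 UMIs was below those of clusters 3, 4, 7 and 8 and within the range of the members' library medians. In cluster 11, led by Fcrl5, Sox5 and Atxn1, 79.2% of 231 cells were members, from 75.9% to 84.2% across libraries, at a median depth of 7406 UMIs.

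Cluster 4, with 1523 cells led by Ccnd2, Bcl2a1b and Marcksl1, was present in all libraries, and its share of members was 63.0%, 69.0%, 73.9% and 83.9%. The lowest share among the large clusters was 40.9% in cluster 1. Several large clusters separated the libraries rather than B cell states found in all of them. Clusters 1 and 2 held 1227 and 926 cells of Control library 1 but 16 and 32 cells of EV library 2. Cluster 3, led by Lifr, held 1585 cells of EV library 2 and 5 of Control library 1, and clusters 6 and 7 held 1091 and 1050 cells of EV library 1 and 8 and 5 of Control library 1. Within a library, the share of members was 41.1% in cluster 1 and 57.3% in cluster 2 in Control library 1, 39.7% and 61.7% in Control library 2, and 43.7% and 63.1% in EV library 1. In EV library 2 it was 69.2% in cluster 3 and 50.05% in cluster 5. The cluster with the higher share was also the deeper one, at medians of 5094 against 3949 UMIs and 6248 against 4763 UMIs, and the part of depth in these shares was not tested. No cluster was given a cell type name.

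**Figure D2:**
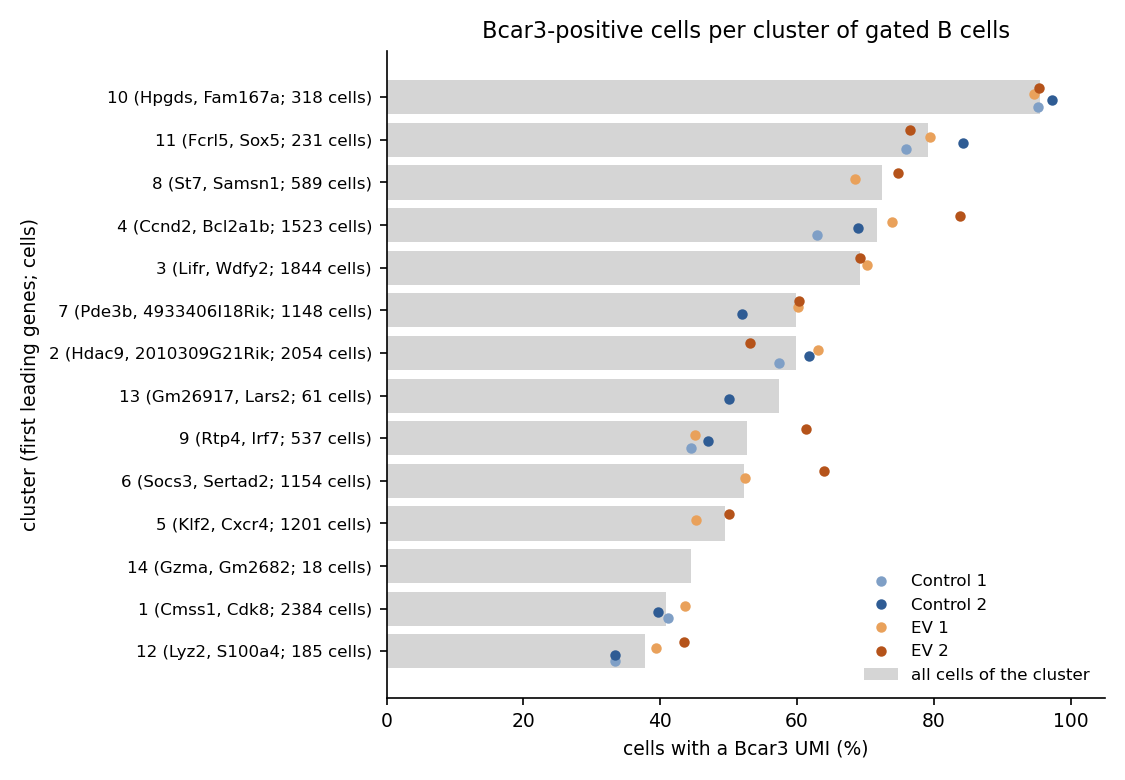
Percentage of cells with a Bcar3 UMI (x axis) in each of 14 clusters of gated B cells (y axis, with the first leading genes and the number of cells), as bars for all cells and points for libraries with at least 20 cells in the cluster. Cluster 10 stands highest at 95.6%, with its 4 library points from 94.7% to 97.2%, and cluster 12 lowest at 37.8%.

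The second comparison asked which genes go with Bcar3 inside the B cells of a library. UMIs were added up for each class within a library, and edgeR compared the 2 classes within libraries. Of 11272 genes tested, 1588 were called at an adjusted p under 0.05 (14.1%), 811 higher (7.19%) and 777 lower (6.89%) in Bcar3-positive cells. In cells drawn so that both classes had the same depth in each library (851 to 1621 cells per class and library), 727 genes were called, and 631 of them were among the 1588 with the same direction, 314 higher (2.79%) and 317 lower (2.81%). The genes named below with a value for this comparison are among these 631, apart from S1pr3, Ccr6, Hhex and those said not to be called. The same sign in all 4 libraries was found for 30.8% of all genes tested.

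The leading rises included receptor, enzyme, survival and transcription factor genes. Fcrl5, an Fc receptor-like inhibitory receptor found on marginal zone and B-1 cells, stood at 35.6, 41.6, 33.5 and 30.2 CPM in Bcar3-positive and at 12.4, 8.26, 13.2 and 11.9 CPM in Bcar3=0 cells. The classes did not overlap, and the log2 difference was 1.53 (SE 0.10, edgeR adjusted p = 3.41e-11), or 0.85 in depth-matched cells. St8sia6, a sialyltransferase, stood at 40.4, 44.1, 28.7 and 33.6 against 20.7, 19.3, 15.6 and 13.6 CPM, a log2 difference of 1.06 (SE 0.08, edgeR adjusted p = 3.32e-10) that depth matching left at 0.99. Both genes were thus higher in members in each library, and only the first lost much of its size at equal depth.

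Egr3, an early transcription factor of the antigen receptor response, stood at 75, 57.0, 34.9 and 35.4 against 47.0, 36.6, 18.6 and 19.0 CPM, a log2 difference of 0.76 (SE 0.07, edgeR adjusted p = 3.19e-09). Myc, a factor that drives growth, stood at 28.4, 17.7, 36.2 and 27.9 against 16.2, 10.2, 19.7 and 12.3 CPM (0.92, SE 0.08). Within every library the member sum was the higher one, although the Egr3 levels of members in the EV libraries lay below those of Bcar3=0 cells in the Control libraries. Bcl2a1b, a BCL2-family survival gene with near-identical neighbouring copies among which reads may be split, was higher by 0.84 (SE 0.06). Ryr2, an intracellular calcium channel, was higher by 0.78 (SE 0.06). At equal depth these 4 differences were 0.73, 0.76, 0.68 and 0.84. Pard3b, a cell polarity gene (0.77), Atxn1 (0.97), the transcription factor Sox5 (0.83) and the ubiquitin ligase gene March3 (0.67) completed the rises with Dtx1 and Arhgap24.

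Arhgap24 stood at 389, 451, 344 and 394 CPM in Bcar3-positive and at 245, 260, 197 and 242 CPM in Bcar3=0 cells. It was given as a marker of these cells with results of these data known, so the difference is a description. The log2 difference was 0.74, and 0.45 in depth-matched cells. Even the cells with exactly 1 Bcar3 UMI differed from Bcar3=0 cells by 0.26.

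**Figure D3:**
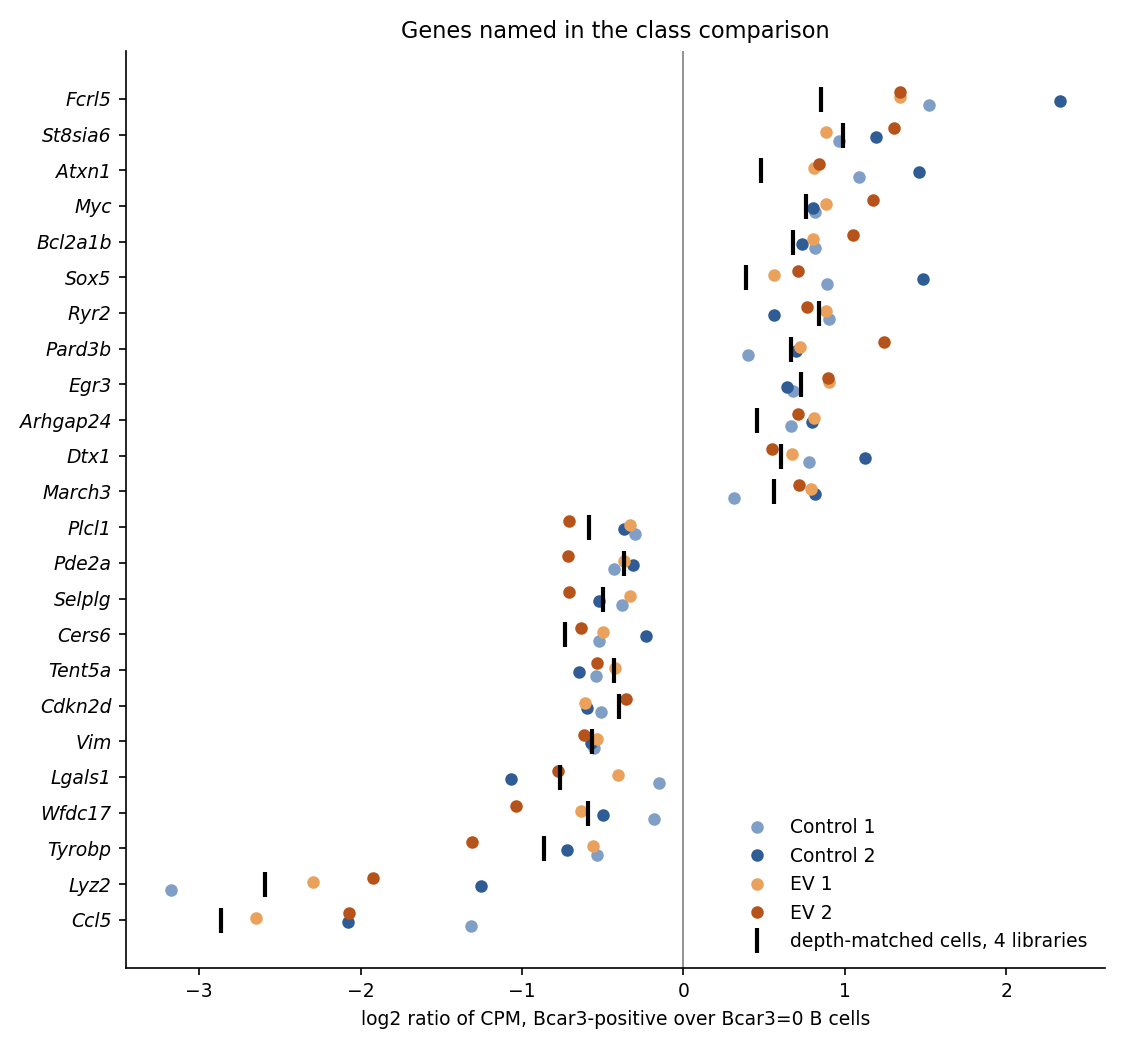
Log2 ratio of CPM in Bcar3-positive over Bcar3=0 B cells (x axis) for the 24 genes that rose or fell most among those called with and without depth matching (y axis), 1 point per library. Black ticks give the fit in depth-matched cells. Each gene has its 4 points on one side of 0, and the ticks of Fcrl5, Atxn1, Sox5 and Arhgap24 lie nearer to 0 than their points.

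Of 15 marginal zone-type genes tested, 8 rose, none fell and 7 were not called, against 7.19% of all genes higher, and the median log2 difference was 0.29 against -0.003 for all genes. In depth-matched cells 6 of 14 rose (Cr2, Dtx1, Plac8, Dph5, Myof and Marcks), with a median of 0.14. With the cells of other types described below removed, 9 of 15 rose and Notch2 fell. Cr2, the complement receptor CD21, stood at 413, 485, 317 and 461 against 336, 372, 221 and 344 CPM, a log2 difference of 0.40 (SE 0.03, edgeR adjusted p = 1.27e-10). Dtx1, a Notch target, stood at 33.6, 43.0, 49.8 and 46.9 against 19.6, 19.7, 31.2 and 32.0 CPM (0.71, SE 0.07). The other list members that rose included Plac8 (0.48), Myof (1.41) and the sphingosine receptor gene S1pr3, which was rare at 1.69 to 4.17 CPM in members and 0.309 to 1.08 CPM in Bcar3=0 cells and was not tested at equal depth. Each of these genes was higher in members in all 4 libraries.

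Among follicular naive genes, Klf2, Cd55 and Ighd fell and Foxp1 rose. Klf2, a factor of quiescence and trafficking, stood at 603, 491, 537 and 634 against 727, 670, 757 and 852 CPM, a log2 difference of -0.43 (SE 0.03, edgeR adjusted p = 5.38e-12). Depth matching left it at -0.29. Cd55, a complement regulator, differed by -0.23. The small rise of Foxp1 was 0.14. Of the 7 transitional genes tested, Vpreb3 fell by 0.37 on the log2 scale, Sox4 fell and Myb rose. Among all genes 6.89% were lower and 7.19% higher. In depth-matched cells Vpreb3 and Sox4 were still called and Myb was not.

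Of 23 genes of B cell receptor signalling, 10 rose and 3 fell (median 0.06). Nfatc1, a calcium-regulated transcription factor, rose by 0.41 (SE 0.04), Vav2, a guanine nucleotide exchange factor, by 0.44 (SE 0.06), the adaptor gene Blnk by 0.26 (SE 0.02) and the kinase gene Blk by 0.16 (SE 0.02). In depth-matched cells 6 of the 23 rose and 1, Prkcb, fell, with a median of -0.01. Among 15 inhibitory receptor and phosphatase genes 2 rose and 2 fell, with Cd72 at 0.17 and Siglecg, a sialic acid-binding inhibitory receptor, at -0.21. Of 25 immediate early and activation genes 7 rose and 5 fell. The rises included Egr3, Myc, Cd83, an activation surface protein (0.29), and the NF-κB regulator Nfkbid (0.46), and the falls were Fos, Junb, Jund, Dusp2 and Ier2. In depth-matched cells 8 of 23 rose, with Cd69 and Nfkbia among them, and of the falls Junb and Ier2 were still called. Over all genes 7.19% were called higher and 6.89% lower.

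Partners of BCAR3 showed no common direction. Of 18 genes tested in the NSP-CAS module, 5 rose (Nedd9, Rapgef1, Ptk2, Dock2 and Elmo1) and 3 fell (Rap1b, Rac1 and Rac2), against 7.19% higher and 6.89% lower among all genes, with a median of 0.01. In depth-matched cells Rapgef1, a Rap exchange factor, rose (0.16) and Rap1b fell (-0.10), and no other member was called. Efs, a further CAS gene, was at 0 in all sums. Dock10, a Rac and Cdc42 exchange factor, stood at 696, 721, 1055 and 1484 against 588, 597, 845 and 1181 CPM and rose by 0.29 (SE 0.02).

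For the other lists, 7.19% of all genes were higher and 6.89% lower, and 2.79% and 2.81% were so at equal depth as well. The class differences of 11 MHC class II genes were small. Of these 8 fell and 1, the class II activator Ciita (0.14), rose, with a median of -0.08, and in depth-matched cells none fell and 2 rose. Of 85 ribosomal protein genes 52 fell (median -0.07), and 7 did so at equal depth. Of 17 B lineage transcription factors 6 rose and 2 fell, with Ikzf1 at 0.25. Of 6 memory and switched isotype genes tested, Pdcd1lg2 (0.41) and Ccr6 (0.19) rose and Hhex, a transcription factor gene, fell (-0.24), with a median of -0.03, and at equal depth Pdcd1lg2 alone was called. Called genes also differed in genomic span, with medians of 62.0 kb for those higher, 11.7 kb for those lower and 22.7 kb for all tested. In the genes called also at equal depth the medians were 46.3 and 22.0 kb. The part of gene length and intronic reads in the class differences was not tested.

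The 12 largest falls among genes at a mean of at least 20 CPM, called with and without depth matching, are given next. Vim, the intermediate filament vimentin, stood at 139, 147, 163 and 164 against 204, 218, 236 and 252 CPM, without overlap, a log2 difference of -0.58 (SE 0.03, edgeR adjusted p = 2.18e-13) that was -0.57 at equal depth. Lgals1 (-0.60), the cell cycle inhibitor gene Cdkn2d (-0.53), the polymerase gene Tent5a (-0.53), the ceramide synthase gene Cers6 (-0.52), the adhesion gene Selplg (-0.50), the phosphodiesterase gene Pde2a (-0.49) and Plcl1 (-0.48) fell as well. After removal of cells with UMIs of other cell types, described next, Lgals1 (-0.20, edgeR adjusted p = 0.0778) and Cers6 (-0.14, edgeR adjusted p = 0.337) were not called. S1pr4, a sphingosine receptor gene, differed by -0.44.

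The 12 also held Ccl5, Lyz2, Tyrobp and Wfdc17, known from myeloid or cytotoxic cells. Ccl5, a chemokine of T and NK cells, stood at 8.02, 17.9, 21.6 and 15.6 CPM in members and at 20, 75.4, 135 and 65.4 CPM in Bcar3=0 cells, a log2 difference of -2.28 (SE 0.09). Lyz2 (-2.13), Tyrobp (-0.82) and Wfdc17 (-0.69) also fell. Summed over the 8 macrophage and monocyte genes, of which Lyz2 was the most abundant, the level was 16.9, 31.5, 39.2 and 35.5 CPM in members and 91.2, 68.2, 149 and 102 CPM in Bcar3=0 cells. The 5 NK cell genes summed to 1.97, 3.25, 11.6 and 2.97 against 3.06, 46.2, 24.1 and 17.2 CPM. Of the genes tested, 3 of 7 macrophage and monocyte genes, 2 of 2 NK cell genes, 2 of 5 dendritic cell genes and 1 of 7 T cell genes (Il7r) fell, against 6.89% of all genes, while the T cell kinase gene Lck rose (0.43). Cells with at least 2 UMIs of the NK cell, myeloid and dendritic cell lists were 3.29% to 3.85% of Bcar3=0 and 3.46% to 3.84% of Bcar3-positive cells. When they were removed, Ccl5 stood at -0.33 (edgeR adjusted p = 0.255) and Tyrobp at 0.03 (edgeR adjusted p = 0.844), and neither was called. Lyz2 is itself on the lists by which cells were removed, so its value after removal is not read. Vim remained called at -0.51, Klf2 at -0.45 and Fcrl5 at 1.46.

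Some levels changed over the whole range of Bcar3 UMIs, and others differed mainly between 0 and 1 UMI. From 0 to 6 or more UMIs, Fcrl5 went from a mean of 11.7 to 72.8 CPM over the 4 libraries, Egr3 from 31.2 to 109, S1pr3 from 0.70 to 9.43, Plac8 from 170 to 386 and Arhgap24 from 242 to 602. Klf2 went from 770 to 363 and Vim from 233 to 97.2 CPM. Tyrobp stood at 58.5 CPM at 0, 32.3 at 1 and 36.2 at 6 or more, and Lgals1 at 41.2, 27.1 and 23.9 CPM, so that these differed mostly between the first 2 bins. Cr2 stood at 326 CPM at 0, at 475 at 4 or 5 and at 456 at 6 or more. With exactly 1 Bcar3 UMI, Egr3 (36.5 CPM) and Plac8 (174 CPM) lay close to Bcar3=0 cells, and 155 genes were called in the members with 1 UMI against 2120 in those with at least 2. The members with 1 UMI were 648, 490, 906 and 757 cells, and those with at least 2 were 796, 785, 1633 and 1750 cells. The number called depends on the cells and UMIs summed, and its part in this contrast was not tested. Depth rose over the same bins, and values are CPM and not thinned.

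**Figure D4:**
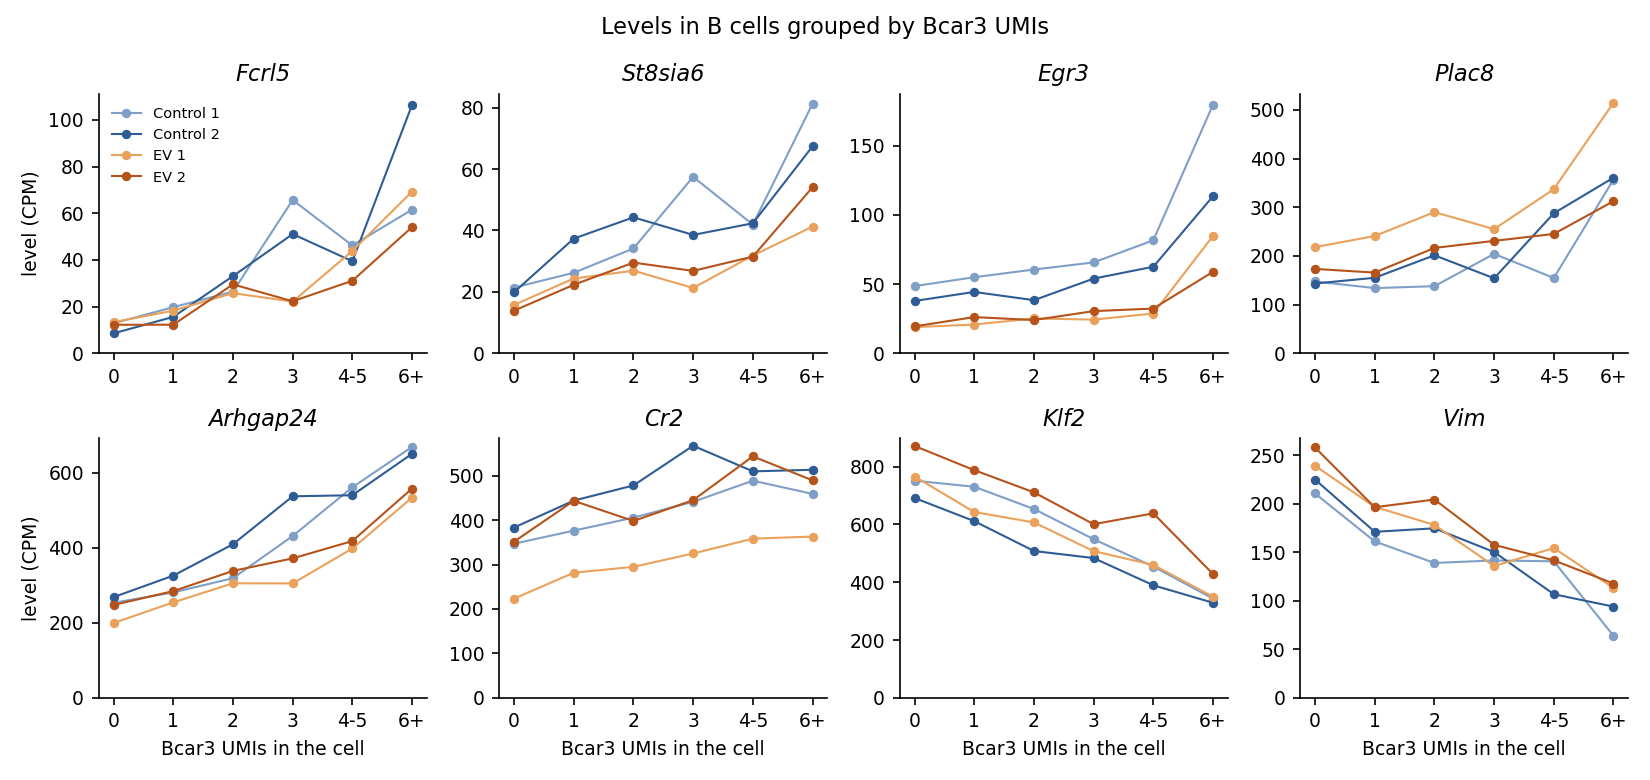
Level in CPM (y axis, from 0) of 8 genes in gated B cells grouped by the number of Bcar3 UMIs in the cell (x axis), 1 line per library. Fcrl5, Egr3 and Plac8 stand highest at 6 or more UMIs in every library except Fcrl5 in Control library 1, and at 6 or more UMIs Arhgap24 stands higher and Klf2 and Vim stand lower than at 0 in each library.

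The third comparison asked how the members differed between EV-treated and Control mice. Of 12126 genes tested, 309 were called (2.55%), 171 higher (1.41%) and 138 lower (1.14%) in the EV libraries. The groups of 2 did not overlap for 50.1% of the genes tested, so that a lack of overlap alone carries little weight. Without Control library 1 the fit called 86 genes and without EV library 1 it called 1720, so that the number called depended on single libraries. The leading rises are given with their values in Bcar3=0 cells of the same libraries, where 2.25% of 11245 genes were called. Both classes come from the same libraries, so their EV effects are not independent.

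Lifr, the receptor for leukaemia inhibitory factor, stood at 4.22 and 4.73 CPM in the Control and at 48.2 and 58.8 CPM in the EV libraries, a log2 difference of 3.55 (SE 0.17, edgeR adjusted p = 1.65e-06). It was 2.62 in Bcar3=0 cells. Samsn1, an adaptor that restrains B cell activation, stood at 151 and 154 against 357 and 474 CPM (1.42, SE 0.14), and at 1.48 in Bcar3=0 cells. Rflnb, which encodes a filamin-binding protein, rose by 1.66 (SE 0.11) and by 1.32 in Bcar3=0 cells. Other leading rises were Pde3b (1.63), St7 (1.60), Ryr2 (1.33), Arap2 (1.25), the heat shock genes Hspa8 (1.21) and Hsph1 (1.18) and Cd83 (1.16). The 2 EV libraries were far apart for Pde3b, at 335 and 120 CPM, and for Ryr2, at 48.7 and 88.5 CPM.

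Il12a, a subunit of the cytokines IL-12 and IL-35, stood at 39.3 and 36.2 CPM in the Control and at 17.8 and 15.2 CPM in the EV libraries, a log2 difference of -1.22 (SE 0.12, edgeR adjusted p = 6.81e-04), and of -0.88 in Bcar3=0 cells. Egr3 stood at 75 and 57.0 against 34.9 and 35.4 CPM (-0.94, SE 0.12, and -1.20 in Bcar3=0 cells). Cirbp, a cold-inducible RNA-binding protein gene, stood at 134 and 126 against 76.2 and 55.9 CPM (-1.0, SE 0.13). Il9r (-1.02), Nxpe4 (-1.0) and Agbl1 (-1.07) fell too. Cdk8 (-1.66), Hist1h4d (-1.62), Hist1h1b (-1.14) and mt-Atp8 (-1.13) also fell. Cdk8, at 704 and 404 against 266 and 93.4 CPM, differed by more within each group than Il12a did, and of the 8 abundant nuclear or rRNA-like transcripts it was the only one called, while the median log2 difference of the 8 was -1.28. Cmss1 of the same list stood at 2689, 2060, 1212 and 136 CPM (-1.85, edgeR adjusted p = 0.163), lowest in EV library 2.

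Of 15 interferon response genes tested 9 rose and none fell, against 1.41% of all genes higher, with a median of 0.63 against -0.003 for all genes, although cells rich in Ifit1, Ifit3 and Rsad2 are left out of the members. Irf7, an interferon-regulated factor, stood at 7.46 and 9.73 against 19.6 and 17.6 CPM (1.09, SE 0.17), Ifi27l2a rose by 0.80 and Ifi47 by 0.63. Of 13 chaperone genes 10 rose and none fell (median 0.58), with Dnaja1 at 1.00 and Stip1 at 0.99. In Bcar3=0 cells 5 of 15 and 10 of 13 rose, again against 1.41% of all genes. The chemokine receptor gene Cxcr4 (1.01), the phosphatase gene Ptpn22 (0.94), Dock10 (0.82) and the kinase gene Fyn (0.48) rose as well.

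Of 15 marginal zone-type genes 1 was called for EV, the Notch target Hes1 (-0.55), and of 18 NSP-CAS genes none, which is near the 2.55% called among all genes. Arhgap24 stood at 389 and 451 against 344 and 394 CPM, with overlapping groups (-0.21, SE 0.12, edgeR adjusted p = 0.394). Irf4, a factor induced by antigen receptor signals, fell by 0.62 on the log2 scale and Cd24a by 0.60. Bcl6 rose by 0.56 and the secretory factor genes Xbp1 and Creld2 by 0.51 and 0.71. Of 25 immediate early and activation genes tested, 3 fell (Egr3, Fosb and Irf4) and 2 rose (Cd83 and Icam1). Of 7 transitional genes 2 fell (Cd24a and Myb), and of 5 germinal centre genes 1 rose. Of 7 plasmablast genes 2 rose. The other genes tested on these lists were not called. Among all genes 1.41% were called higher and 1.14% lower.

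**Figure D5:**
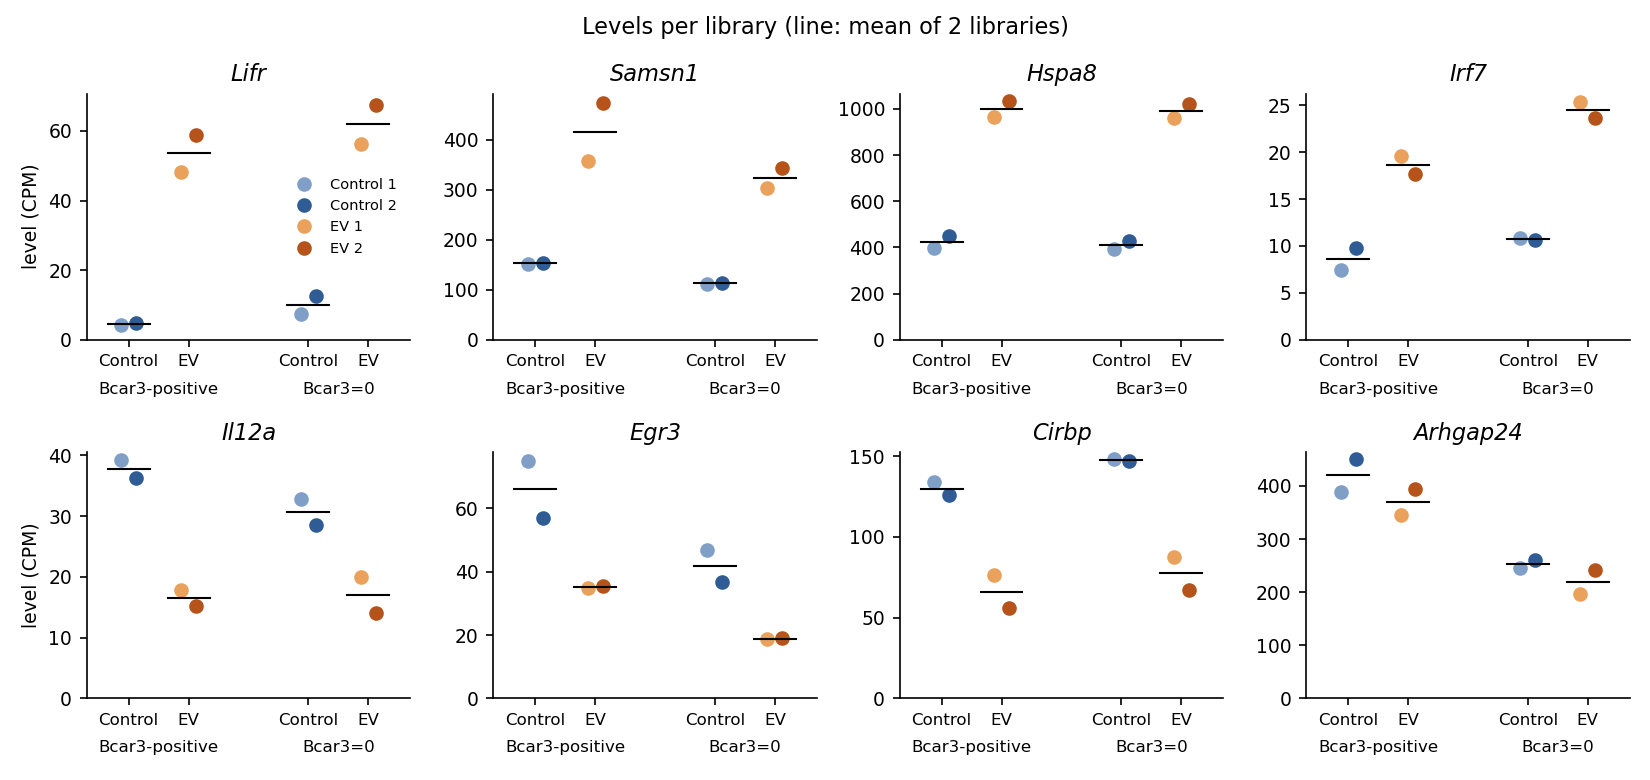
Level in CPM (y axis, from 0) of 8 genes per library in Control and EV mice (x axis), in Bcar3-positive and Bcar3=0 B cells, with a line at the mean of 2 libraries. Lifr, Samsn1, Hspa8 and Irf7 are higher and Il12a, Egr3 and Cirbp lower in both EV libraries in both classes, whereas the Arhgap24 groups overlap in Bcar3-positive cells and do not differ by a called amount in either class.

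The difference between the EV effects in the 2 classes was then tested itself, within libraries. Of 11828 genes 23 were called (0.194%), 5 (0.0423%) with a more positive EV effect in Bcar3-positive cells and 18 (0.152%) with a more negative one. Stap1, a B cell adaptor gene, was the most abundant of the former, with a difference of 0.22 (SE 0.05, edgeR adjusted p = 0.0181) between EV effects of 0.20 and -0.03. Nr6a1 had 232 UMIs in Control and 819 in EV members against 162 and 231 in Bcar3=0 cells, a difference of 0.88 (SE 0.19). Apoe, a lipid carrier gene, had the negative difference of -0.36 (SE 0.08).

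The largest negative difference was that of H2-M2, which had 14 and 2 UMIs in Bcar3=0 cells of the Control and 36 and 78 in those of the EV libraries, against 28, 6, 9 and 9 UMIs in members. After cells with at least 2 UMIs of other cell types were removed, 8 genes were called, of which 6 were among the 23, and H2-M2 was too low to be tested. Stap1 was then not called (0.21, edgeR adjusted p = 0.0522), whereas Nr6a1 and Apoe were. With DESeq2 in place of edgeR no gene was called for this interaction (56 at an unadjusted p under 0.05).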

How the data were processed

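Per the labels and the study's methods, the authors made the deposited UMI counts per gene and barcode with Cell Ranger 7.1.0 on mm10 from 10x 3′ libraries, and deposited them unnormalised. The annotation release, the counting of intronic reads and the use of strand are not given in the sources used here. The filters of 200 to 5000 genes, at most 20000 UMIs and under 10% mitochondrial UMIs left 32725 of 34323 cells. Scrublet marked 3.76%, 2.99%, 1.58% and 3.22% of the kept cells of Control 1, Control 2, EV 1 and EV 2 as doublets, which were kept and removed only in an alternative.

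Because cells are not replicates, the counts of all cells of a class in a library were added up and tested with edgeR 4.0.16 in R 4.3.3 (quasi-likelihood test, TMM, filterByExpr, Benjamini-Hochberg adjusted p under 0.05). Class and interaction tests had the library as a block, and EV against Control had none. The gate genes received no call, except that Bcar3 was tested for EV over all gated B cells, where its threshold does not apply. Some list members and lists are not reported here. CPM use TMM library sizes. Clusters came from scanpy 1.11.5 (2000 variable genes without the 13 gate genes, 30 components, 20 neighbours, resolution 1). In simulated counts, log2 changes of 0.5 were set in genes at a mean of at least 20 CPM. Of these, 99 of 100 were recovered between classes (11154 genes fitted) and 59 of 100 between EV and Control (11914). In the interaction 72 of 100 were recovered (11664). Rarer genes were given no change, so their recovery is not known.

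Named genes are Bcar3 and Arhgap24, the 12 largest rises and 12 largest falls between classes called with and without depth matching at a mean of at least 20 CPM with 1 sign in all libraries, the 10 largest each way between EV and Control among called genes without overlap, up to 4 per list and the 5 largest interactions each way. S100a4 and other leading genes of clusters are named as descriptions only. The members and lists were chosen with earlier results of these data known. Replicates sharing a number did not deviate together (r = 0.04 over 6092 genes in members), so the numbers were not taken to pair libraries. P-values measure the spread between 4 libraries only. Alternatives were DESeq2 1.42.0, other library sizes, no filter, thinning to 1000 UMIs, depth matching, other Bcar3 minimums, doublet removal, other filters on cells and leaving out each library. Those with exactly 1 Bcar3 UMI, with cells of other types removed and over all gated B cells were added after seeing the data.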

Additional observations from a re-analysis of the deposited data

Results flagged for a closer look

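The EV effect differed between Bcar3-positive and Bcar3=0 B cells for 23 genes by the edgeR interaction test. The 5 most negative log2 differences were those of H2-M2 (-4.27), Zfp366 (-3.55), Cacnb3 (-3.26), Ralyl (-3.11) and Tbc1d4 (-3.03), and the 5 positive ones were Stap1 (0.22), Nr6a1 (0.88), Timd4 (4.49), Ighg1 (8.10) and Gzma (8.38). Ralyl had 21, 51, 21 and 55 UMIs in members and 18, 3, 96 and 50 in Bcar3=0 cells of Control 1, Control 2, EV 1 and EV 2. Timd4 had 3, 3, 29 and 27 against 7, 36, 7 and 6 UMIs. Ighg1 had 0, 0, 11 and 37 UMIs in members and 0, 28, 3 and 17 in Bcar3=0 cells. Gzma had 0, 0, 115 and 1 against 3, 118, 125 and 44 UMIs. With 0 UMIs in the Control members, the fitted values of Ighg1 and Gzma depend on the prior count and are no bounds. H2-M2, Zfp366, Cacnb3, Tbc1d4, Timd4 and Gzma were not tested after cells with at least 2 UMIs of NK cell, myeloid and dendritic cell genes were removed, while Ralyl (-3.12), Nr6a1 (0.89) and Ighg1 remained called and Stap1 did not (0.21, edgeR adjusted p = 0.0522). The part of cells of other types in these differences was not tested.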

How the results depend on the processing

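Between Bcar3-positive and Bcar3=0 cells, the 1588 called genes became 547 with DESeq2, 727 in depth-matched cells, 432 in cells thinned to 1000 UMIs, 155 with exactly 1 Bcar3 UMI and 1027 to 1261 without 1 library. Without the library block 21 were called. With cells of other types removed, Tyrobp moved to 0.0315. For EV against Control, 309 became 655 without the filter on low counts, 119 in thinned cells, and 86 (without Control 1) to 1720 (without EV 1), with 857 without EV 2. With a replicate block it called 1004 genes, although the numbers do not pair the libraries. The 23 interaction genes became 51 without the filter, 1 in thinned cells, 8 with cells of other types removed, and 17 to 48 (without EV 1). DESeq2 called 0 (56 at an unadjusted p under 0.05), and edgeR without the library block 0 (214). The EV effect on Bcar3 over all gated B cells ranged from 0.0497 to 0.53 without 1 library. A fit with 1 library in a group assumes that it varies like the others.

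The EV difference in the share of members was 3.23 percentage points of gated B cells and 5.14 of filtered cells after thinning, and 10.4 of filtered cells with at least 2 Bcar3 UMIs. Values of single genes and the numbers of genes called higher or lower were also compared with the main fit. Of these, 1133 stayed the same, which for a gene means its direction and side of the threshold. Among single genes 175 were no longer called, 1 became called and 1 reversed, whereas the 40 that moved were numbers of called genes. The cause of these changes was not tested, apart from thinning, matching and leaving out libraries, which use fewer UMIs, cells or samples. Depth limits rare genes such as S1pr3 and any share of cells with a UMI.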
